A study of Mus musculus with 6 samples.

Results

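Galactosylceramide and its sulfated form, sulfatide, are the characteristic lipids of myelin, and 8 genes that make them were followed in the sciatic nerve: *Sptlc1*, *Sptlc2*, *Cers2*, *Degs1*, *Degs2*, *Fa2h*, *Ugt8a* and *Gal3st1*. They were picked by symbol, and all 8 were found, each in 1 row, among the 59485 genes of the deposited table. All 8 passed the filter on low values, a mean of at least 10 in at least 1 genotype, which left 25802 genes for the test. RNA came from sciatic nerves of P4 mice, 3 animals labelled wild-type and 3 of the genotype Ht-PA-Cre; Adar1fl/fl;R26R, with 1 library from each animal. The methods of the study give wild-type animals as Adar1fl/fl;R26R or Adar1fl/+;R26R without Cre, so both groups carried floxed *Adar* alleles and the R26R reporter. Cre was driven in the mutants by the human tissue plasminogen activator promoter, which is active in neural crest (NC) cells, the origin of Schwann cells (SCs) and of endoneurial fibroblasts, whereas endothelial cells and blood of the nerve have other origins.

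Values are normalized read counts, that is, reads counted on the constitutive regions of a gene and divided by a size factor of the library. They are not divided by gene length, so levels were compared between libraries and not between genes. The libraries held 50938349 to 78250094 reads on genes. *Adar*, the targeted gene, had 1602, 2066 and 1133 normalized reads in controls 1 to 3 and 11768, 9311 and 9773 in mutants 1 to 3, a log2 fold change of 2.72 (limma, adjusted p = 4.1e-05). *Adar* thus rose in the libraries labelled as a deletion. The value is for the gene as a whole and not for its floxed part, so it cannot show whether the deletion took place. The groups are called control-labelled and mutant-labelled below wherever a direction is drawn. The SC lineage was present in all libraries, since the 5 markers *Sox10*, *Erbb3*, *S100b*, *Foxd3* and *Cdh19* summed to 42039 to 44914 normalized reads in control-labelled and 20011 to 26912 in mutant-labelled libraries, and none was at 0.

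Synthesis of these lipids begins in the endoplasmic reticulum, where serine palmitoyltransferase joins serine to palmitoyl-CoA. Ceramide synthases then attach a fatty acid and a desaturase completes ceramide. In myelinating glia the fatty acid is often hydroxylated, UDP-galactose ceramide galactosyltransferase adds galactose, and cerebroside sulfotransferase adds sulfate to give sulfatide. These last steps are active in SCs during myelination, and the lipids they make are needed for the stability of the sheath and of the paranodal junctions.

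Transcripts of the enzymes of the last steps were strongly reduced, whereas of those for ceramide synthesis *Cers2* and *Degs1* were modestly lower. The genes *Fa2h*, *Ugt8a* and *Gal3st1* had 4.04%, 6.93% and 24.4% of the mean of the control-labelled libraries, and *Sptlc1*, *Sptlc2*, *Cers2* and *Degs1* had 69.4% to 81.5%. In limma's test on log2(value + 1), 3 of the 8 genes passed the threshold of an unadjusted p at or under 0.05 and at least a 2-fold change, and all 3 were lower, beside 10.4% of all tested genes that passed it as lower and 13.9% as higher. At an adjusted p at or under 0.05 and any fold, 5 of the 8 were lower, beside 16% of all tested genes lower and 19% higher. Among the 8 genes, 7 had all 3 mutant-labelled values below all 3 control-labelled values, which was so for 23.3% of tested genes, and none had them all above, which was so for 25.9%. The median log2 fold change was -0.48 over the 8 genes and 0.03 over all tested genes. In whole nerve, fewer cells of a type and less RNA per cell cannot be told apart.

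**Figure D1:**
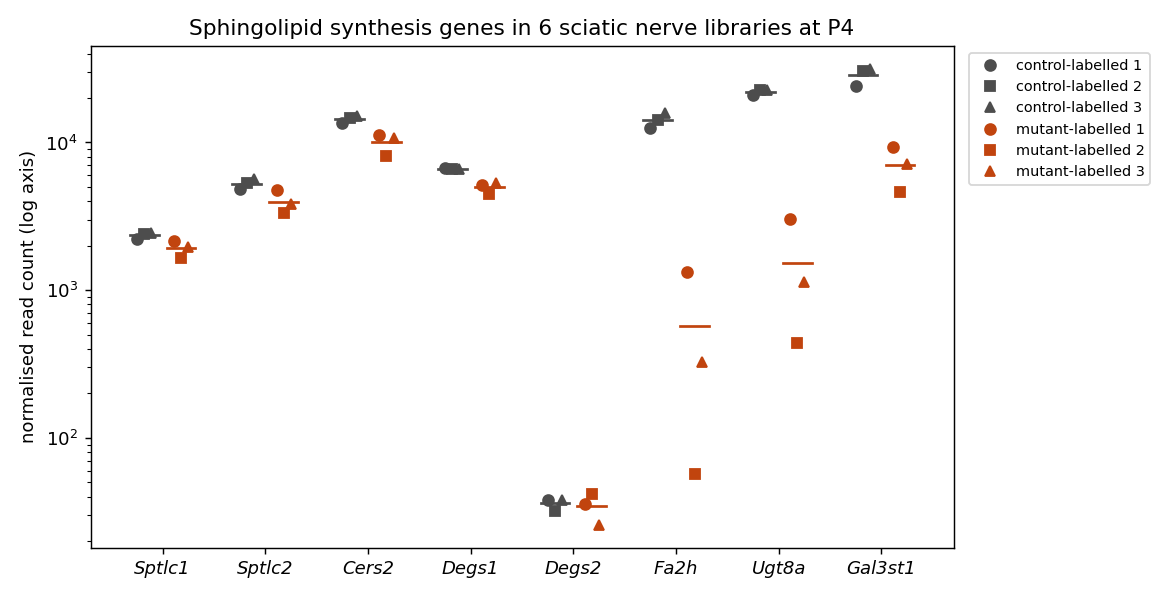
Normalized read counts (log axis) of the 8 genes in each of the 6 libraries, with gray symbols for control-labelled and orange symbols for mutant-labelled libraries, the symbol shape giving the replicate number and the short bars the mean of 3 libraries. The *Fa2h*, *Ugt8a* and *Gal3st1* values of the mutant-labelled libraries lie far below those of the control-labelled libraries, while the *Degs2* values of 25.7 to 41.5 overlap.

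*Sptlc1* and *Sptlc2* encode the subunits of serine palmitoyltransferase, the rate-limiting enzyme of sphingolipid synthesis. *Sptlc1* (GSMG0010675, mm10 chromosome 13, 53332699 to 53377399, minus strand) had 2215, 2395 and 2446 normalized reads in controls 1 to 3 and 2147, 1648 and 1954 in mutants 1 to 3. The groups did not overlap, but mutant 1 was close to control 1, and the log2 fold change of -0.30 (SE 0.12, 95% interval -0.58 to -0.02) did not pass adjustment (limma, adjusted p = 0.0904). *Sptlc2* (GSMG0009153, chromosome 12, 87305065 to 87388355, minus strand) had 4814, 5323 and 5619 in controls and 4796, 3325 and 3819 in mutants. Mutant 1 was again next to control 1, and mutant 2 was the lowest. The log2 fold change of *Sptlc2* was -0.41 (SE 0.14, limma, adjusted p = 0.0507), and without mutant 1 it was -0.56 with an adjusted p of 0.0129. The log2 ratio of *Sptlc2* to *Sptlc1* within a library was 1.16 ± 0.04 (SD, n = 3) in control-labelled and 1.05 ± 0.10 (n = 3) in mutant-labelled libraries (exact two-sided permutation test, p = 0.3).

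*Cers2* encodes the ceramide synthase that attaches very long chain fatty acids, the form that predominates in myelin lipids. *Cers2* (GSMG0024652, chromosome 3, 95315190 to 95323598, plus strand) had 13507, 14693 and 15023 normalized reads in controls 1 to 3 and 11206, 8153 and 10646 in mutants 1 to 3. Every mutant-labelled library was below every control-labelled one, mutant 2 by the most, and *Cers2* fell by 0.54 on the log2 scale (SE 0.13, limma, adjusted p = 0.012). *Degs1* encodes the desaturase that turns dihydroceramide into ceramide. *Degs1* (GSMG0002581, chromosome 1, 182275770 to 182282801, minus strand) had 6685, 6625 and 6639 in controls and 5142, 4470 and 5277 in mutants. The control-labelled libraries were nearly equal, and the mutant-labelled ones were all lower, with a log2 fold change of -0.43 (SE 0.09, limma, adjusted p = 0.00871). Both calls were lost in limma's fit without a trend, at an adjusted p of 0.0692 for *Cers2* and 0.0593 for *Degs1*, and that of *Degs1* also with libraries scaled to the same total (0.063).

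*Degs2*, whose product makes phytoceramide in epithelia and is known mainly from skin, intestine and kidney, was the only one of the 8 genes near the limit of detection. *Degs2* (GSMG0009303, chromosome 12, 108686792 to 108702307, minus strand) had 37.8, 32.1 and 38.0 normalized reads in controls and 35.6, 41.5 and 25.7 in mutants, from 26 to 49 reads a library. The groups overlapped, and the log2 fold change was -0.09 with a 95% interval of -1.09 to 0.91, an interval that holds 2-fold changes in the lower direction and nearly 2-fold ones in the higher (limma, adjusted p = 0.893). The gene *Evl*, with up to 5839 normalized reads, overlaps *Degs2* on the opposite strand, and the sources used here do not say whether reads were counted by strand. *Cers2* overlaps *Setdb1* on the opposite strand, with up to 1064 normalized reads, and *Sptlc2* overlaps 2 genes without a symbol on its own strand, with at most 68.4.

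**Figure D2:**
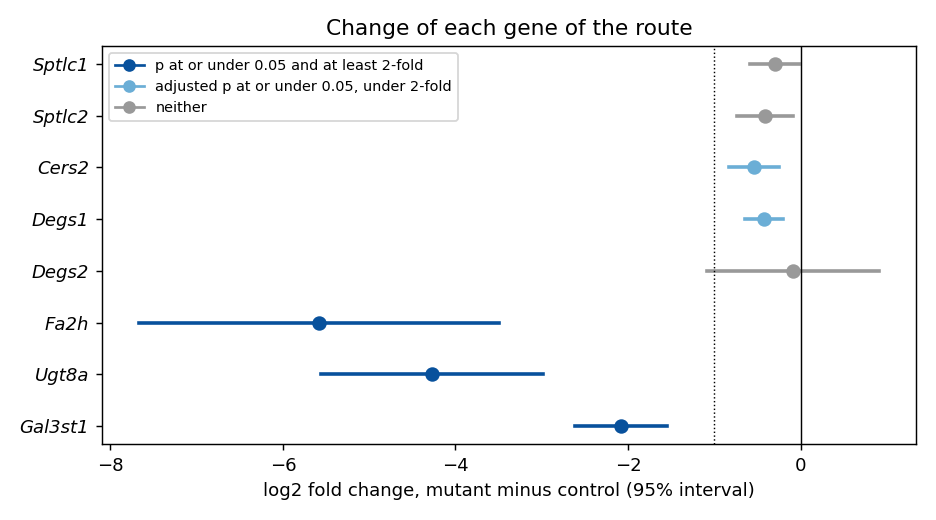
Log2 fold change of each gene, mutant minus control, with its 95% interval from limma; the solid line marks no change and the dotted line a 2-fold fall. Intervals of *Fa2h*, *Ugt8a* and *Gal3st1* lie wholly to the left of the 2-fold line, that of *Degs2* spans both sides of 0, and the others lie between -0.83 and -0.02.

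*Fa2h* encodes fatty acid 2-hydroxylase, which makes the hydroxylated fatty acids of galactosylceramide and sulfatide. *Fa2h* (GSMG0038930, chromosome 8, 111345138 to 111393821, minus strand) had 12478, 14268 and 15817 normalized reads in controls 1 to 3 and 1335, 56.9 and 328 in mutants 1 to 3. Mutant 2 was almost without *Fa2h*, at 0.401% of the control mean, while mutant 1 kept 9.41%. *Fa2h* fell by 5.58 on the log2 scale (SE 0.91, limma, adjusted p = 0.00203), and was 20th in size of fall among the 2671 genes that passed the threshold as lower. The means of the groups differed 24.7-fold, less than the fitted change, because the fit averages logarithms and mutant 2 weighs more there. Without mutant 1 the log2 fold change was -6.68, and without mutant 2 it was -4.41.

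*Ugt8a* encodes UDP-galactose ceramide galactosyltransferase, the enzyme that commits ceramide to galactosylceramide. *Ugt8a* (GSMG0026022, chromosome 3, 125865272 to 125956653, minus strand) had 20975, 22534 and 22681 normalized reads in controls and 3014, 436 and 1134 in mutants. The order of the mutant-labelled libraries was that of *Fa2h*, with mutant 1 highest and mutant 2 lowest, at 13.7% and 1.98% of the control mean. The log2 fold change of *Ugt8a* was -4.27 (SE 0.56, limma, adjusted p = 0.000675), the 104th largest of the 2671 falls. It was -4.97 without mutant 1 and -3.58 without mutant 2.

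*Gal3st1* encodes cerebroside sulfotransferase, which turns galactosylceramide into sulfatide. *Gal3st1* (GSMG0004827, chromosome 11, 3983636 to 3999328, plus strand) had 24286, 30563 and 31581 normalized reads in controls and 9340, 4630 and 7099 in mutants. The groups were far apart, but the mutant-labelled libraries still held 16.1% to 32.4% of the control mean. The log2 fold change of *Gal3st1* was -2.08 (SE 0.23, limma, adjusted p = 0.000288), ranked 1028th of the 2671 falls. A gene without a symbol overlaps *Gal3st1* on the same strand, with at most 425 normalized reads.

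Promoter sequences of RefSeq (GRCm38.p6) were at hand for 7 of the 8 genes, and those of *Ugt8a* and *Gal3st1* are shown because both enzymes act in turn on the same lipid and both transcripts fell. Each line gives the 250 bases before the start of transcription, 5′ to 3′ on the strand of the gene, in lower case with motif matches in capitals.
*Ugt8a*, chr3:125938653-125938902, minus strand: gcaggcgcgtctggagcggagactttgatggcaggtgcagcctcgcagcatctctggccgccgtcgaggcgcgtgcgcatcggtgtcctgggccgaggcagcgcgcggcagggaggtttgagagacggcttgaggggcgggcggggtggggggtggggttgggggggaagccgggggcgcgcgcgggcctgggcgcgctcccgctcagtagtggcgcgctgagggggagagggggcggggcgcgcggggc
*Gal3st1*, chr11:3983386-3983635, plus strand: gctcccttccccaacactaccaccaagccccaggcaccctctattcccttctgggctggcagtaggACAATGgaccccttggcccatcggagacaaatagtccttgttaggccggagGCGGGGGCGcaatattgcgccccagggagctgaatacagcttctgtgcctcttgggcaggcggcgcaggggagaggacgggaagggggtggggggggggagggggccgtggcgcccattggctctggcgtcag
The RefSeq start of transcription of *Ugt8a* lies 18001 bases inside the gene as the table gives it, whereas that of *Gal3st1* matches the table's start, and neither window overlaps an exon annotated in GENCODE. Motifs searched on both strands were ACAAAG and ACAATG, read by SOX factors, TCACNCCAC, a sterol regulatory element, and GCGNGGGCG, read by EGR factors. The *Ugt8a* window, of which 76.8% is G or C, held none of them, and the *Gal3st1* window, at 65.6%, held 1 ACAATG and 1 GCGNGGGCG. Windows of this length held ACAATG in 10.7% and GCGNGGGCG in 4.7% of the 32851 promoters in the reference, ACAAAG in 16.5% and TCACNCCAC in 1.05%. Of the other windows, that of *Sptlc1* held 1 ACAAAG and those of *Sptlc2*, *Cers2*, *Degs1* and *Degs2* held no match.

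The mutant-labelled libraries did not lose these transcripts equally. Mutant 1 was highest, mutant 3 next and mutant 2 lowest for 6 of the 8 genes and for 10 of 11 genes of myelin proteins. The exceptions were *Degs1*, highest in mutant 3, *Degs2*, highest in mutant 2, and the myelin gene *Mobp*, which was at 0 in mutants 2 and 3. *Adar*, although higher in mutant-labelled libraries, had the same order, and the share of all tested genes with it was not counted. The highest mutant-labelled library exceeded the lowest 23.5-fold for *Fa2h*, 6.91-fold for *Ugt8a* and 2.02-fold for *Gal3st1*, but 1.18- to 1.44-fold for *Sptlc1*, *Sptlc2*, *Cers2* and *Degs1*. *Sox10*, the transcription factor of the SC lineage, had 12618, 11719 and 10919 normalized reads in controls and 9171, 5838 and 6828 in mutants, in the same order of mutant-labelled libraries (log2 fold change -0.71, limma, adjusted p = 0.00874). The part of SC number in these differences was not tested.

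**Figure D3:**
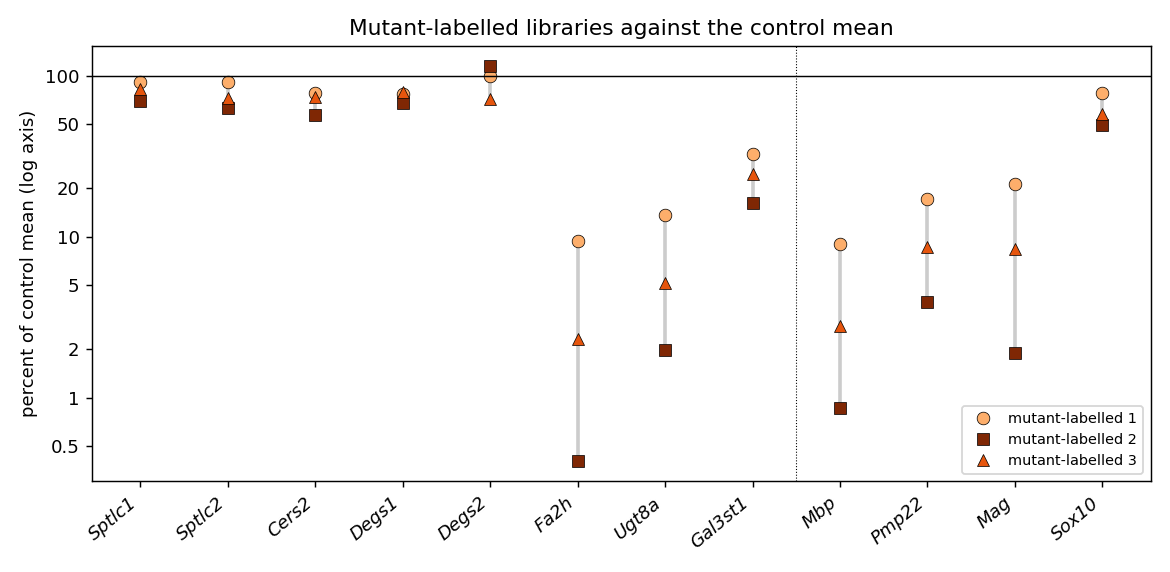
Value of each mutant-labelled library as percent of the mean of the control-labelled libraries (log axis) for the 8 genes, and to the right of the dotted line for 3 genes of myelin proteins and *Sox10*. *Fa2h* spans 0.401% to 9.41%, *Ugt8a* 1.98% to 13.7% and *Gal3st1* 16.1% to 32.4%, with mutant 2 lowest in each.

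Whether related genes changed by different amounts was asked with 8 ratios of gene pairs within a library, which do not depend on the scaling of libraries. The pairs are neighboring or opposing steps, competing branches, alternative enzymes of the same step, or subunits of the same enzyme. The smallest p of an exact two-sided permutation test of 3 libraries against 3 is 0.1, so no ratio could reach 0.05. In 5 of the 8 pairs the groups did not overlap, each with the smallest possible p of 0.1 (0.16 adjusted over the 8 pairs). By single genes, 23.3% of all tested genes had all mutant-labelled values below the control-labelled ones and 25.9% had them all above, so a lack of overlap was common. *Ugcg* encodes the glucosylceramide synthase that competes with *Ugt8a* for ceramide. The log2 ratio of *Ugt8a* to *Ugcg* was 4.70, 5.02 and 5.05 in controls and 1.68, -1.19 and 0.11 in mutants, a difference of -4.73 (-5.47 without mutant 1 and -4.03 without mutant 2). All 3 mutant-labelled ratios were below the control-labelled ones, and mutant 2 was lowest.

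The log2 ratio of *Gal3st1* to *Ugt8a* was 0.21, 0.44 and 0.48 in controls and 1.63, 3.41 and 2.64 in mutants, so that the *Gal3st1* transcript was reduced less than that of *Ugt8a* in every mutant-labelled library. That of *Fa2h* to *Cers2* was -0.11, -0.04 and 0.07 in controls and -3.07, -7.14 and -5.01 in mutants, a difference of -5.05 (-6.05 without mutant 1 and -4.01 without mutant 2). *Galc* encodes galactosylceramidase, which breaks down what *Ugt8a* makes. The log2 ratio of *Ugt8a* to *Galc* was 3.54, 3.50 and 3.43 in controls and 2.68, 0.53 and 1.80 in mutants, so the *Ugt8a* transcript was reduced more than that of *Galc*. Of the remaining pairs, *Cers2* to *Cers6* did not overlap (difference -1.94, and -1.33 without control 3), while *Cers2* to *Cers5* (-0.05, exact permutation p = 0.6) and *Degs1* to *Degs2* (-0.34, exact permutation p = 0.3) did.

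**Figure D4:**
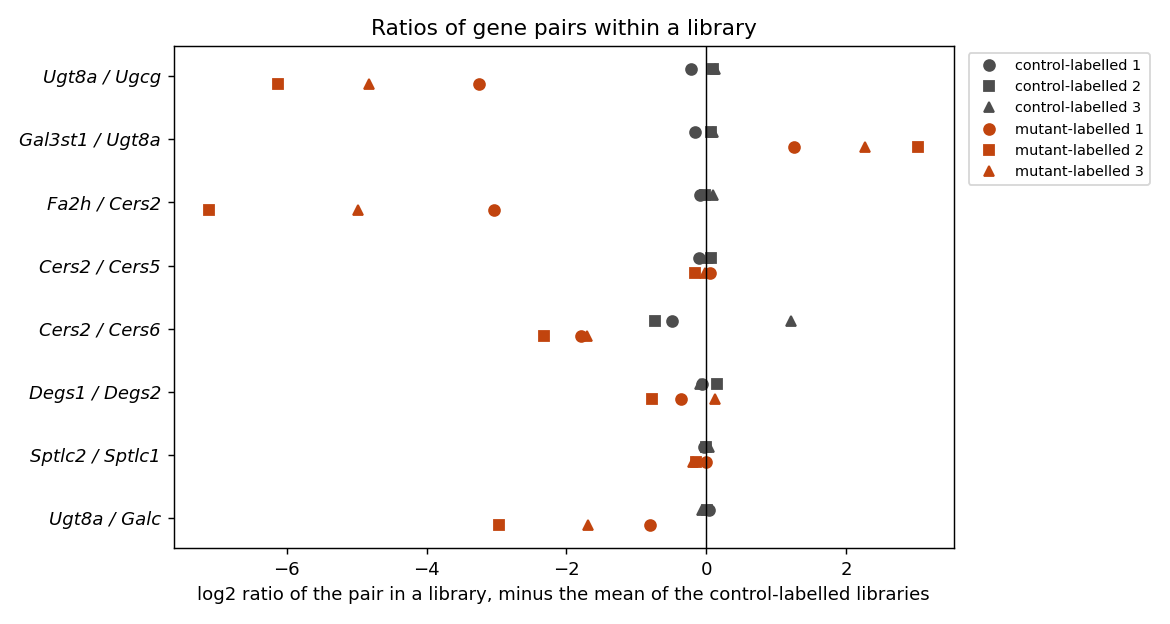
Log2 ratio of each of 8 gene pairs in each library, shifted so that the mean of the control-labelled libraries is 0, in gray for control-labelled and orange for mutant-labelled libraries, with the symbol shape giving the replicate number. Ratios of *Ugt8a* to *Ugcg*, *Ugt8a* to *Galc* and *Fa2h* to *Cers2* lie below and those of *Gal3st1* to *Ugt8a* above the control-labelled values in all 3 mutant-labelled libraries, while those of *Cers2* to *Cers5* overlap around 0.

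As a description over the 6 libraries, which share depth and genotype with every gene, the log2 values most like those of *Ugt8a* among 16648 other tested genes with a symbol were those of *Mbp*, *Sema4g*, *Cuedc2*, *Prx* and *Pmp22* (Pearson r from 0.9994 to 0.9998). *Mbp*, *Prx* and *Pmp22* are genes of myelin proteins. For *Gal3st1* they were *Lpar1*, *Aif1l*, *Tex2*, *Jam3* and *Ust*, which changed by -1.07 to -1.97 on the log2 scale. For *Fa2h* they were *Svip*, *Gpr37l1*, *Ddn*, *Nfasc* and *Kremen1*, of which *Nfasc* encodes neurofascin of the node and paranode. *Nfasc* fell by 3.86 on the log2 scale (limma, adjusted p = 0.00194).

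The rest of sphingolipid metabolism was read from 6 lists with 64 genes, 61 of them tested. Of these, 7 passed the threshold as lower and 11 as higher, and at an adjusted p at or under 0.05 and any fold 22 were lower and 13 higher, with a median log2 fold change of -0.23. The 22 include *Glb1*, whose row is shared with another gene. Over all tested genes the shares are 10.4% lower and 13.9% higher by the threshold, close to those of these lists. By the adjusted p they are 16% lower and 19% higher. The 22 lower of 61 are thus a larger share than among all tested genes, and the 13 higher are near it. The 11 genes of myelin proteins all passed the threshold as lower, with a median of -3.58. The weakest of them was *Pmp2* at -1.06 (limma, adjusted p = 0.0977), which passed the threshold in 7 of 17 alternatives and was -0.46 without mutant 2.

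Among the other genes of ceramide synthesis, 5 of 10 tested were lower at an adjusted p at or under 0.05 and none was higher, beside 16% and 19% of all tested genes. *Sptssa*, the small subunit of serine palmitoyltransferase, fell by 0.85 on the log2 scale (limma, adjusted p = 0.000758), beside the changes of -0.30 and -0.41 of *Sptlc1* and *Sptlc2*. *Sptlc3*, the alternative subunit, had 2.22 normalized reads in control 1 and none elsewhere. *Ormdl1*, a regulator of the enzyme, *Kdsr*, the reductase of the second step, and *Cers5* fell by 0.53, 0.49 and 0.49. The adjusted p of *Ormdl1* was 0.0527 without control 3, and that of *Kdsr*, 0.0489, was 0.0581 to 0.131 with any library left out and 0.178 with libraries scaled to the same total. *Cers4* had 2650, 2933 and 1765 in controls and 887, 683 and 948 in mutants, with no overlap and a log2 fold change of -1.52 (limma, adjusted p = 0.000833). *Cers6*, for long chain fatty acids, went the other way, from 68.8, 88.8 and 22.8 in controls to 142, 149 and 127 in mutants. Its log2 fold change of 1.40 passed the threshold but not adjustment (limma, adjusted p = 0.06). Without control 3 it was 0.82, and without mutant 1, 2 or 3 it was 1.38, 1.35 or 1.46 with an unadjusted p of 0.0604, 0.0634 or 0.0502. On the same strand 8 genes without a symbol overlap *Cers6*, with up to 302 normalized reads, more than *Cers6* itself had, and their part in its values and in the ratio of *Cers2* to *Cers6* was not tested. *Cers1* shares its row with *Gdf1* and could not be told from it.

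Of 6 genes that supply galactose and sulfate to these enzymes, 3 passed the threshold as lower and none as higher, beside 10.4% and 13.9% of all tested genes. *Papss1*, which makes the sulfate donor PAPS, had 13551, 16082 and 16614 in controls and 5980, 4757 and 4729 in mutants, a log2 fold change of -1.58 (SE 0.13, limma, adjusted p = 5.02e-05). *Slc35b2*, which carries PAPS into the Golgi, and *Slc35a2*, which carries UDP-galactose, each fell by 1.02 (limma, adjusted p = 0.000141 and 0.000289). Both lay at the 2-fold limit, since the changes of *Slc35b2* and *Slc35a2* were -0.96 and -0.97 without control 3 and -0.96 and -0.99 without mutant 3, and that of *Slc35a2* was -0.99 without mutant 2. With libraries scaled to the same total they were -0.85 and -0.86, so both calls were lost. The other 3 genes of this list, *Papss2*, *Ugp2* and *Slc35b3*, had log2 fold changes of -0.27 to 0.32 and did not pass.

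In the branches that use ceramide for other lipids, 1 of 8 sphingomyelin genes was lower and 2 were higher at an adjusted p at or under 0.05, and 6 of 12 glucosylceramide and ganglioside genes were lower and 3 higher, beside 16% and 19% of all tested genes. In the sphingomyelin branch, *Sgms2*, a sphingomyelin synthase, rose from 80.0, 102 and 77.3 to 269, 236 and 283, a log2 fold change of 1.60 (limma, adjusted p = 0.00154). *Smpd3*, a neutral sphingomyelinase, rose from 26.7, 20.8 and 13.9 to 111, 138 and 147 (log2 fold change 2.67, limma, adjusted p = 0.00145). *Smpd2* fell by 0.83, and 5 of the 8 genes did not pass. In the glucosylceramide and ganglioside branch, *Ugcg* rose by 0.46 on the log2 scale (limma, adjusted p = 0.0261) and *B4galt5*, a lactosylceramide synthase, by 1.45, while *B4galt6*, the other lactosylceramide synthase, fell by 0.82. *St8sia5*, a sialyltransferase of gangliosides, had 262, 277 and 275 in controls and 21.8, 0 and 8.90 in mutants. It was the sphingolipid gene outside the 8 with the largest fall, and its mutant-labelled libraries had the order of *Fa2h* (log2 fold change -5.48, limma, adjusted p = 0.00377). With mutant 2 at 0 this value moved with the pseudocount, from -6.65 at 0.1 to -3.95 at 10, and it was -6.43 without mutant 1, -4.18 without mutant 2 and -4.64 in edgeR. *St3gal5*, which makes GM3, fell by 0.95, and *A4galt*, a galactosyltransferase of globosides, rose by 0.97. The call of *Ugcg* was lost without control 2 or 3 (adjusted p = 0.0926 and 0.085) or mutant 2 or 3 (0.0546 and 0.0737), and that of *A4galt* without control 2 or 3 (0.0585 and 0.065) or mutant 1 or 2 (0.069 and 0.0748). In limma without a trend *Ugcg* had an adjusted p of 0.0567 and *A4galt* one of 0.0782.

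Of 15 tested genes of sphingolipid breakdown, 2 passed the threshold as lower and 3 as higher, near the 10.4% and 13.9% of all tested genes. At an adjusted p at or under 0.05, 6 were lower, *Glb1* included, 4 were higher and 5 did not pass, beside 16% lower and 19% higher of all tested genes. *Galc* had 1808, 1986 and 2104 in controls and 470, 302 and 325 in mutants, a log2 fold change of -2.45 (SE 0.18, limma, adjusted p = 4.01e-05). *Gm2a*, the GM2 activator, fell by 1.27, and *Psap*, *Arsa* and *Neu1* fell by 0.68, 0.51 and 0.73. *Glb1* could not be told from the gene that shares its row. *Arsa* encodes arylsulfatase A, which removes the sulfate that the product of *Gal3st1* adds. *Gla*, which encodes alpha-galactosidase A, rose by 0.97 (limma, adjusted p = 0.00616). Of the genes for ceramidases in this list, *Acer2*, *Acer3* and *Asah2* rose by 2.64, 1.11 and 1.43 on the log2 scale (limma, adjusted p = 0.000731, 0.000569 and 0.0229), whereas lysosomal *Asah1* had a log2 fold change of -0.20 and did not pass, and *Acer1* was not tested. Without control 2, *Arsa* had an adjusted p of 0.0612, and *Asah2* had one of 0.0553, 0.0735, 0.0802 and 0.0743 without control 2, control 3, mutant 1 and mutant 3. In limma without a trend *Asah2* had an adjusted p of 0.0573 and *Glb1* one of 0.0503, and that of *Glb1* was 0.0522 without control 2. In the metabolism and receptors of sphingosine 1-phosphate, 4 of 10 genes passed the threshold as higher and none as lower, beside 13.9% and 10.4% of all tested genes. *Sphk1*, a sphingosine kinase, rose from 56.6, 49.1 and 138 to 503, 526 and 806 (log2 fold change 3.02, limma, adjusted p = 0.000719). *S1pr2* and *S1pr4*, receptors, rose by 1.03 and 1.42 (limma, adjusted p = 0.00087 and 0.0467), and *Sgpp2*, a phosphatase, passed the threshold only before adjustment (1.98, limma, adjusted p = 0.0793). *S1pr2* was under 2-fold without control 3 (0.88) and with libraries scaled to the same 75th percentile (0.96), *S1pr4* had an unadjusted p of 0.0561 without mutant 1 (1.29) and lost its adjusted call without any library but control 3 (adjusted p 0.0656 to 0.129), and *Sgpp2* had one of 0.0882, 0.0739 and 0.113 without control 1, mutant 2 and mutant 3 (1.36, 1.94 and 1.61). Genes on the opposite strand overlap *Smpd2*, *Smpd3*, *Neu1* and *Sgpp2*, with up to 16571, 3828, 12944 and 6637 normalized reads, more than these 4 genes had. The same was so for *Sphk2*, *Cers1*, *Ormdl2* and *Gba2*, with up to 17016, 10139, 5059 and 3011 on the opposite strand.

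**Figure D5:**
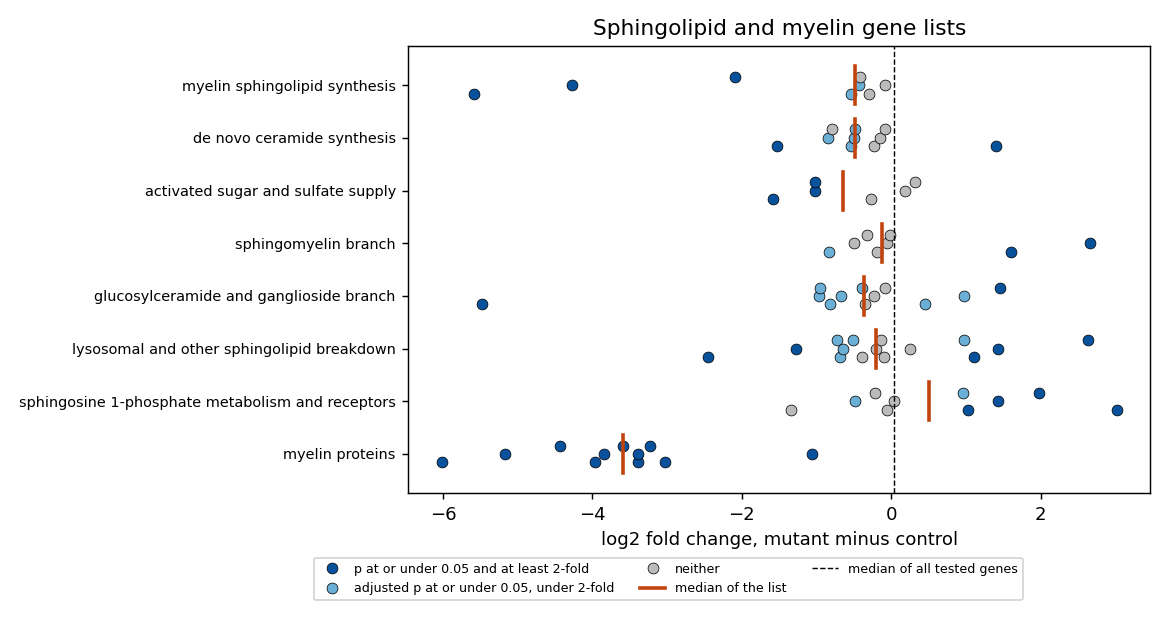
Log2 fold change, mutant minus control, of each tested gene in the 8 synthesis genes, 6 other sphingolipid lists and the genes of myelin proteins, colored by call, with the median of each list in orange and that of all tested genes (0.03) as a dashed line. All 11 genes of myelin proteins lie at or below -1.06, while the sphingolipid lists hold both lower and higher genes.

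Markers of other cells of the nerve moved with genotype as well, and their part in these values was not tested. The counts below are by the threshold, which 10.4% of all tested genes passed as lower and 13.9% as higher. All 5 erythroid markers were lower (sum 54904 to 76993 in control-labelled and 5110 to 15703 in mutant-labelled libraries). Skeletal muscle markers were higher for 4 of 5 (5187 to 28319 and 34500 to 267697, the highest in mutant 3), and the 8 genes are thus measured in libraries that differ in muscle RNA. Of the SC lineage markers 2 of 5 passed the threshold as lower, *S100b* by the most at -3.07, while *Cdh19* changed by 0.13. Of 5 markers of non-myelinating and immature SCs, *Ngfr*, *Ncam1*, *L1cam* and *Cdh2* did not pass and *Gfap* was higher (sum 16802 to 19936 and 18506 to 20334). Among markers of fibroblasts 2 of 5 were lower (1777660 to 2106500 and 718507 to 1061210), and among those of macrophages 2 of 5 were lower and 1 higher (9104 to 12283 and 4206 to 5833). Perineurial markers were lower and higher for 1 each of 4 (16661 to 19926 and 15785 to 18067), and no endothelial marker of 5 passed the threshold (11452 to 17876 and 16431 to 22136). None of the 4 adipocyte markers passed, though mutant 2 had the highest sum (5351 to 12164 and 3195 to 25922). Keratinocyte markers (229 to 260 and 193 to 285) and those of T cells, B cells and neutrophils (45.5 to 71.0 and 47.5 to 192) were low in all libraries, though *Krt5*, *Krt14* and *Cd8a* passed the threshold as higher, and *Cd8a* and *Ly6g* were at 0 in all control-labelled libraries.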

How the data were processed

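RNA-seq libraries of P4 sciatic nerve, 3 labelled wild-type and 3 labelled Ht-PA-Cre; Adar1fl/fl;R26R, were analysed. The authors mapped paired reads of oriented poly-A cDNA to mm10 with STAR 2.4.0, counted reads on constitutive regions of FAST DB genes and divided the counts by DESeq2 size factors. The deposited signal is thus a normalized read count. Whether counting used strand is not given in the sources used here. A single read was worth 0.727 to 1.27, 100% of the values were whole reads within 0.01, and edgeR and DESeq2 were run on the reads so recovered.

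log2(value + 1) was fitted with limma (lmFit, eBayes with trend) for the 25802 genes with a mean of at least 10 in at least 1 genotype, with Benjamini-Hochberg adjustment over all of them. The threshold was an unadjusted p at or under 0.05 and at least 2-fold, the limits of the study. The study applied them with DESeq2 to a smaller set of genes, those expressed above a background from intergenic regions. Counts and shares here are therefore not comparable with those of the study. A fold change on the log2(value + 1) scale understates that of genes with few reads. Ratios of 8 gene pairs were compared with exact two-sided permutation tests. Genes named are the 8 of the route, those of fixed pathway lists, and for *Ugt8a*, *Gal3st1* and *Fa2h* the 5 genes with the highest Pearson correlation. The genes, lists and pairs were chosen with earlier results of these data known. Errors are SDs over 3 libraries or standard errors of the fit, and each library is a different animal. Read numbers speak to counting error only, because libraries amplified without molecular identifiers hold PCR copies. Results of the fit were recomputed under 11 alternatives (pseudocount, filter, scaling, trend, edgeR, DESeq2, replicate block) and leaving out 1 of the 6 libraries at a time, and ratios with 2 other pseudocounts and the same leave-outs. Ranks, library orders, correlations and motif matches were not recomputed. Some single genes are not reported here and are not in the lists. Counts over a list include its members that are not named in the text. Scripts were tested on simulated data. Coordinates are those of mm10 in the table, promoter windows are from RefSeq, and exons from GENCODE vM21. R 4.3.3, limma 3.58.1, edgeR 4.0.16, DESeq2 1.42.0, Python 3.11.15 and matplotlib 3.10.9 were used.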

Additional observations from a re-analysis of the deposited data

How the results depend on the processing

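*Fa2h*, *Ugt8a* and *Gal3st1* passed the threshold as lower under all 11 alternatives and whichever of the 6 libraries was left out, so the count stayed at 3. The number of the 8 genes with an adjusted p at or under 0.05, 5 in the analysis above, was 3 in limma without a trend, 4 (*Degs1* lost) with libraries scaled to the same total, and up to 7 with the same 75th percentile, where *Sptlc1* (adjusted p = 0.037) and *Sptlc2* were added. Over all settings adjusted p ranged from 0.037 to 0.403 for *Sptlc1*, 0.0129 to 0.189 for *Sptlc2*, 0.000939 to 0.0692 for *Cers2* and 0.000749 to 0.063 for *Degs1*. Scaling to the same total moved the median log2 fold change of all genes from 0.03 to 0.19, and there *Degs2* was 0.0694. With a library left out *Degs2* ranged from -0.24 to 0.10, and it was not tested at a mean of at least 50. The log2 fold change of *Fa2h* was -4.60 in edgeR and -4.63 in DESeq2. The near-zero difference in the log2 ratio of *Cers2* to *Cers5* changed sign, with -0.0948 to 0.0144 when a library was left out. Genes past the threshold numbered 4706 to 6892 over all settings and other sphingolipid genes 15 to 21.

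Deviations of same-numbered libraries from their group means correlated at -0.06, -0.06 and 0.01, and the numbers name different animals, so they share only a number. A replicate block gave 6149 genes past the threshold against 6251, 3 and 5 of the 8 genes by the 2 call rules, and 18 other sphingolipid genes. At an adjusted p it ended the calls of *Kdsr* (0.0728), *Ugcg* (0.0684), *St3gal2* (0.0665), *Sphk2* (0.0558) and *S1pr4* (0.0745). With 3 animals a group and 26 to 49 reads for *Degs2*, modest changes of weakly expressed genes cannot be resolved.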
